A study of Mus musculus with 4 samples.

Results

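The E2 ubiquitin-conjugating enzymes were taken as the 37 protein-coding genes whose symbol starts with Ube2 in the GENCODE annotation of GRCm38, out of 55401 gene identifiers in each count file. The cells were oocytes of E18.5 fetuses, which the sample titles call PGCs (primordial germ cells). The ICR mothers had eaten a control chow (ND) or one high in fat (HFD) for 4 months and were then mated with ND males. SSEA-1-positive germ cells were sorted from dissociated ovaries, several fetuses were pooled per sample, and libraries were made with SMART-Seq2, a protocol that amplifies full-length polyA RNA of few cells. There were 2 ND libraries and 2 HFD libraries, with 5723605 to 8223255 counted reads each. The sample titles name no genotype, and the diet of the mother was the factor that differed. Nothing in the sources states whether the replicates came from separate mothers, so that p-values measure only the spread between these samples.

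Ubiquitin is activated by an E1 enzyme, passed to the active-site cysteine of an E2 enzyme, and transferred to a substrate with the help of an E3 ligase. The E2 sets much of the kind of ubiquitin chain that is built, and a few E2s carry ubiquitin-like proteins such as SUMO, NEDD8 or ISG15 instead. In germ cells the E2s UBE2A and UBE2B, the mammalian counterparts of yeast RAD6, are known from mouse mutants: loss of Ube2b leaves males infertile, and females that lack Ube2a do not support early cleavage of their embryos. The rule on symbols also took in UBE2V1 and UBE2V2, which resemble E2s but lack the active-site cysteine, and Ube2cbp, which encodes a UBE2C-binding protein rather than an E2.

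Ube2a lies on chromosome X of GRCm38 from 36873900 to 36884222 on the plus strand, and Ube2b on chromosome 11 from 51985497 to 52000762 on the minus strand. Their coding sequences are both 459 bases long and aligned without gaps. They were identical at 356 bases (77.6%), whereas 145 of 152 codons specified the same residue. The first 150 bases of each coding sequence, from the GENCODE transcripts, are printed 5′ to 3′ to show how reads of the paralogs can be told apart, with the 37 bases that differ in capitals.
Ube2a: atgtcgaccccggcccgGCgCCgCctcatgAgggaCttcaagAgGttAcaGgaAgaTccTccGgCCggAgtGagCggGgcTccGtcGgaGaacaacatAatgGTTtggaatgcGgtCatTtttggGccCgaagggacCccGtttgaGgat
Ube2b: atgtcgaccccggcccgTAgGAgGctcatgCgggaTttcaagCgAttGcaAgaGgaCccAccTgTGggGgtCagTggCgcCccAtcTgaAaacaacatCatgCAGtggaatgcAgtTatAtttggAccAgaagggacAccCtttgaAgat
The longest run of identical bases in the whole coding sequence was 17 bases, and no exon of Ube2a or Ube2b overlapped an exon of another gene. No stretch of 100 bases in a transcript of either gene occurred in another annotated gene.

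Markers of the cells that the sort could hold were uneven over the libraries. Levels are given as CPM, the counts scaled by the total of the library. Background was set in each library from 1135 olfactory receptor genes (910 to 1090 of which had reads), at percentile 99 of their counts per exon kilobase, together with more than 3 counts. The 10 germ cell markers summed to 1564 to 3863 CPM per library, with 6 to 9 of them above background. Dazl, a defining germ cell gene, had 14247 and 29465 counts in ND and 2926 and 49 in HFD, whereas Sycp1, a component of the synaptonemal complex of meiosis, had 36 and 48 in ND and 9038 and 7978 in HFD. Ddx4, also a germ cell gene, had 49 and 97 counts in ND and 5 and 14 in HFD. Germ cell genes were thus present in every library, but different ones were high. The 7 stromal markers summed to 2244 and 66.3 CPM in ND replicates 1 and 2 and to 2220 and 7673 CPM in HFD replicates 1 and 2, and the 8 pregranulosa markers to 26.4, 404, 16.1 and 2071 CPM in the same order. The high pregranulosa sums came mainly from Fst in ND replicate 2 (383 CPM) and from Amhr2 and Rspo1 in HFD replicate 2 (1113 and 920 CPM). Foxl2, Wnt4, Kitl, Krt19 and Lgr5 had at most 15.5 CPM in any library. The 4 endothelial markers summed to between 16.8 and 695 CPM, highest in HFD replicate 1, where Kdr alone had 681 CPM. The 4 macrophage markers summed to between 3.20 and 23.6 CPM. No germ cell, stromal, pregranulosa or endothelial marker was at 0 in any library, but most olfactory receptor genes had reads too. Above background were 5, 4, 3 and 5 stromal markers in ND replicates 1 and 2 and HFD replicates 1 and 2. The same counts were 1, 3, 0 and 3 for pregranulosa, 0, 1, 2 and 1 for endothelial and 0, 0, 0 and 2 for macrophage markers. The part of other cell types in the levels of the Ube2 genes was not tested.

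UBE2A and UBE2B are the E2s of histone H2B and PCNA ubiquitination, with RNF20 and RNF40 or with RAD18 as E3. Ube2b was abundant in both ND libraries and at background in both HFD libraries. Its counts were 16090 in ND replicate 1 and 8070 in ND replicate 2, or 1957 and 1033 CPM, against 13 in HFD replicate 1 and 11 in HFD replicate 2, or 2.01 and 1.92 CPM. The ND libraries averaged 1495 ± 653 CPM and the HFD libraries 1.97 ± 0.0647 CPM (SD, n = 2 per diet), and the groups did not overlap. The fitted log2 fold change of HFD over ND was -9.49 (SE 2.48, unadjusted p = 0.00917, adjusted p = 0.406). P-values of single genes are from the quasi-likelihood test of edgeR, with Benjamini-Hochberg adjustment over 19335 genes. Leaving out single libraries gave values from -10.30 to -9.01. DESeq2 gave Ube2b an adjusted p of 7.94e-12, whereas the 11 other alternatives gave 0.234 to 0.817.

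Ube2a did not separate the diets. It had 5085 counts in ND replicate 2 and 2049 in HFD replicate 1, or 651 and 317 CPM, against 34 and 21 counts in ND replicate 1 and HFD replicate 2, or 4.13 and 3.67 CPM. One library of each diet was thus high and the other low, the groups overlapped, and HFD replicate 2 was at background. Its log2 fold change of -0.60 (SE 2.85, adjusted p = 0.968) moved to 5.84 without ND replicate 2 and to -7.26 without HFD replicate 1. The sign turned under some settings, also to 0.40 without HFD replicate 2 and to 0.028 with limma-voom.

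The paralogs took different shares of their joint reads in every library. Ube2b made up 99.8% of the reads of the pair in ND replicate 1 (95% Wilson interval 99.7% to 99.8%, for counting error only) and 61.3% in ND replicate 2 (60.5% to 62.2%). In HFD it made up 0.630% in replicate 1 (0.369% to 1.08%) and 34.4% in replicate 2 (20.4% to 51.7%). The last value rests on 32 reads, of which 11 were Ube2b. Both ND shares lay above both HFD shares, the mean difference (HFD minus ND) was -63.1 percentage points, and an exact permutation test, two-sided, gave p = 0.333, the smallest value that 2 libraries against 2 allow. The joint level of the pair was 1961 and 1683 CPM in ND replicates 1 and 2, against 319 CPM in HFD replicate 1, where Ube2a supplied nearly all of it, and 5.59 CPM in HFD replicate 2, where neither paralog was above background. In bulk samples such as these, fewer cells of a type and less RNA per cell cannot be told apart.

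**Figure D1:**
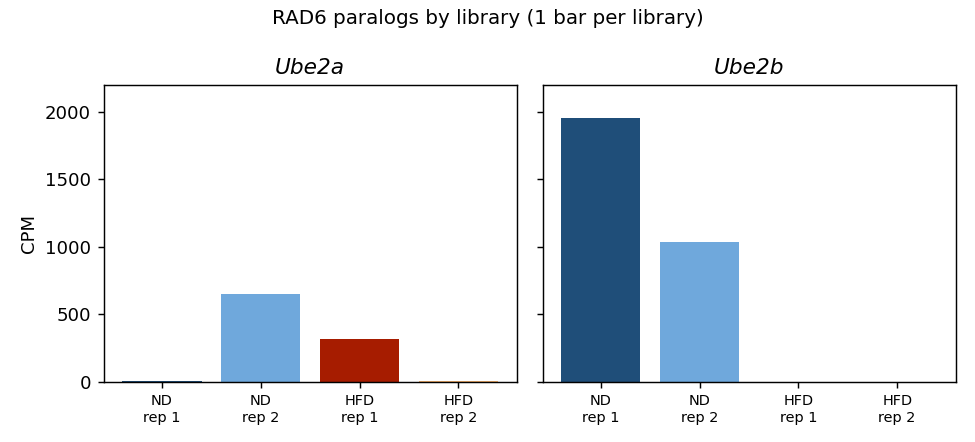
CPM of Ube2a (left) and Ube2b (right) in each library, 1 bar per library without error bars, on a linear axis that starts at 0. Ube2b stands at 1957 and 1033 CPM in the ND libraries and near 2 CPM in both HFD libraries, while Ube2a is high in ND replicate 2 and HFD replicate 1.

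All Ube2 genes together held 5252 and 3342 CPM in ND replicates 1 and 2 and 1640 and 832 CPM in HFD replicates 1 and 2. The HFD sums were both lower, with a mean difference of -1.84 on the log2 scale (exact permutation test, two-sided, p = 0.333, the smallest possible). With Ube2b taken out of the sum, a choice made after the values were seen, the sums were 3296, 2309, 1638 and 830.1 CPM in the same order, and the difference was -1.24. A different gene led in each library. Ube2b supplied 37.3% of the Ube2 reads of ND replicate 1, Ube2m 36.8% of those of ND replicate 2, Ube2j2 43.4% of those of HFD replicate 1 and Ube2g1 43.3% of those of HFD replicate 2. By role, the RAD6 pair supplied 37.3% and 50.4% of the Ube2 reads of ND replicates 1 and 2, against 19.5% and 0.672% for HFD replicates 1 and 2. The 7 genes of endoplasmic reticulum (ER) associated and K48 chain E2s supplied 0.602% and 1.91% in ND and 50.7% and 65.0% in HFD.

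**Figure D2:**
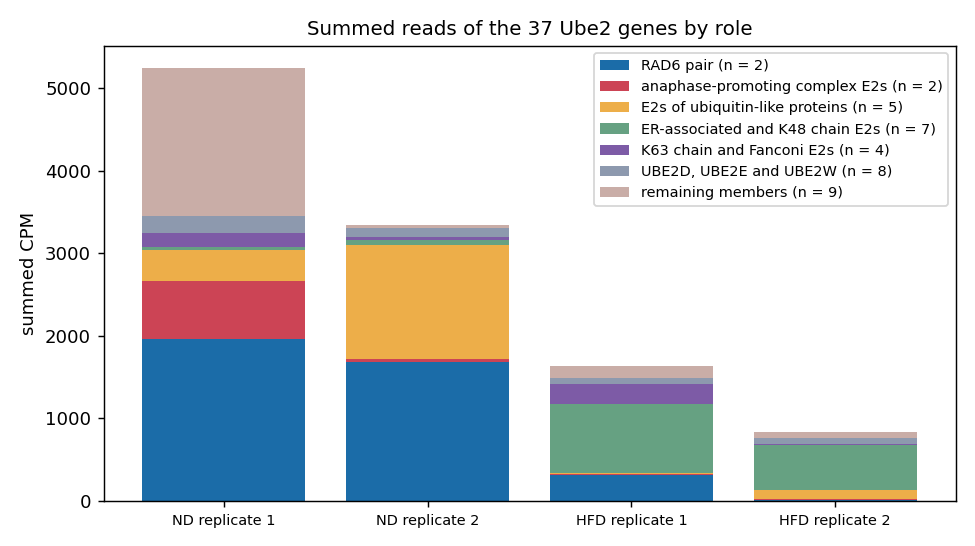
Summed CPM of the 37 Ube2 genes in each library, stacked by role, with the number of genes of each role in the key. The sums are 5252 and 3342 CPM for ND and 1640 and 832 CPM for HFD, with the RAD6 pair as the largest role in both ND libraries and the ER-associated and K48 chain E2s in both HFD libraries.

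Of the 37 genes, 15 reached 50 CPM in at least 1 library. Of these, 10 did so in exactly 1 library, 5 in 2 libraries, and 0 in 3 or 4 libraries, while 22 did so in 0. Of all protein-coding genes, 84.7% reached that level in 0 libraries, 10.9% in exactly 1, 3.03% in 2, 1% in 3 and 0.448% in 4. Among the coding genes that reached it in any library, the shares were 70.8% in exactly 1, 19.7% in 2, 6.55% in 3 and 2.92% in 4, so that the share of Ube2 genes high in a single library, 66.7%, was near that of coding genes at large. The other 22 genes ranged from 0 to 37.4 CPM and had at most 214 counts in a library. Above background were 21 and 23 Ube2 genes (56.8% and 62.2%) in ND replicates 1 and 2. In HFD replicates 1 and 2 there were 9 and 11 (24.3% and 29.7%). The share over all protein-coding genes was lower in each library, at 24.9% and 22.1% for ND and 13.3% and 15.2% for HFD. Ube2j2 alone exceeded background in all 4 libraries, and 7 genes did so in none, namely Ube2d2b, Ube2dnl1, Ube2dnl2, Ube2k, Ube2l6, Ube2v1 and Ube2w.

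**Figure D3:**
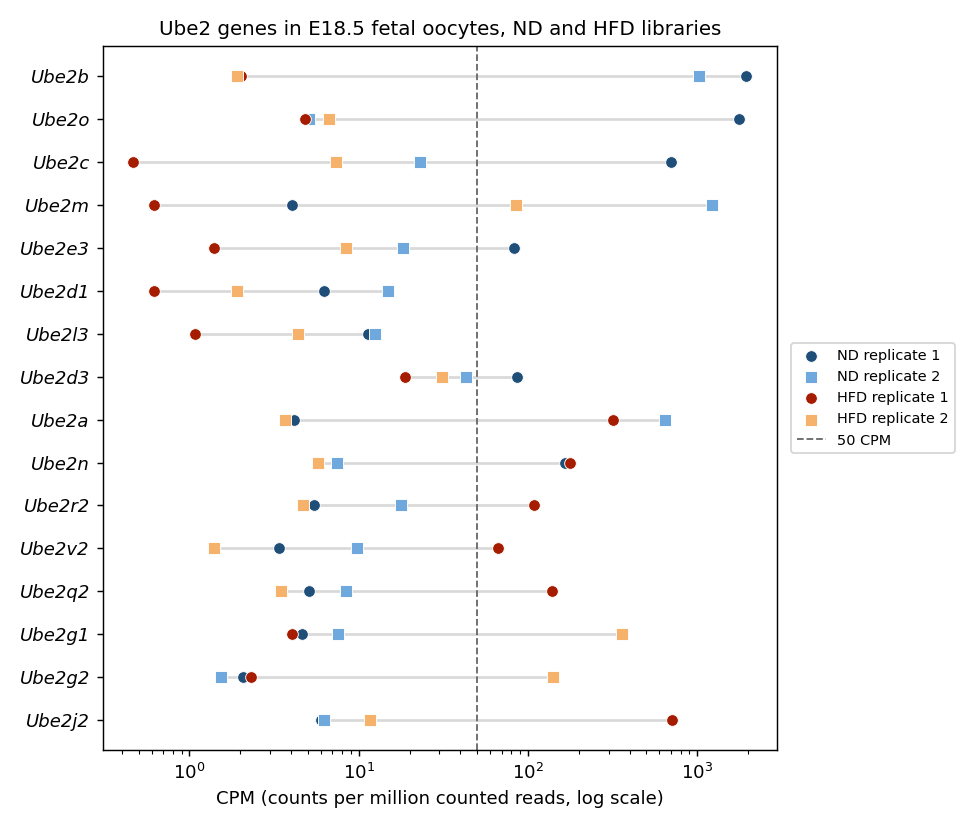
CPM on a log axis of 16 Ube2 genes described in full, in the 4 libraries (blue ND, red and orange HFD, circles replicate 1, squares replicate 2), ordered by fitted log2 fold change. The dashed line marks 50 CPM, and no gene lies to its right in more than 2 libraries.

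After edgeR's filter on low counts 33 of the 37 genes were tested, and Ube2d2b, Ube2dnl1, Ube2dnl2 and Ube2v1 were not. None of the 33 was called at an adjusted p under 0.05 and a fold change over 1.5 in edgeR's quasi-likelihood test, where 0% of all 19335 genes were called, and the smallest adjusted p over all genes was 0.406. At an unadjusted p under 0.05 there were 7, of which 6 were lower in HFD and 1 higher, beside 6.41% and 4.82% of all genes. Ube2b, Ube2c, Ube2d1, Ube2e3 and Ube2l3 were among the lower ones, and Ube2g2 was the higher one. The fitted log2 fold change was below 0 for 20 genes and above 0 for 13, with a median of -0.15, against a median of 0.03 over all genes, of which 48.5% were below 0 and 51.5% above. The Ube2 median was -1.69 without HFD replicate 1 and 0.04 without ND replicate 2. Both HFD values lay below both ND values in 8 tested genes and above them in 4, beside 13.4% and 13.9% of all genes tested. DESeq2 gave an adjusted p to 23 Ube2 genes and called 4 higher and 6 lower, beside 24.3% and 21% of the genes to which it gave one. Since a gene could pass the filter through the diet in which it was high, these counts describe the tested genes only.

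The spread between replicates was set beside the difference between diets. The first is a gap between single libraries and the second a difference between means of 2 libraries, which vary less. On log2 CPM with a prior count of 2, the median gap was 0.80 between the ND libraries and 1.37 between the HFD libraries over the tested Ube2 genes, and the median difference between diets was 1.04. The same values over all genes tested were 0.80, 0.88 and 0.67. The diet difference exceeded both replicate gaps in 7 Ube2 genes (21.2%), beside 19.2% of all genes.

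The anaphase-promoting complex, the E3 that drives chromosome segregation and exit from division, works with UBE2C, which starts chains, and UBE2S, which extends them. Ube2c had 5747 and 181 counts in the ND libraries, or 699 and 23.2 CPM, and 3 and 42 counts in the HFD libraries, or 0.465 and 7.34 CPM. Both HFD values were lower, but 95.8% of the CPM summed over the libraries came from ND replicate 1. The log2 fold change of Ube2c was -6.98 (SE 2.64, unadjusted p = 0.0396, adjusted p = 0.406) and became -3.23 without ND replicate 1. Of its exon bases 22.8% lie in an exon of Tnnc2 on the opposite strand, which had at most 5 counts in a library. Ube2s had 65 and 82 counts in ND and 18 and 67 in HFD, and the groups overlapped.

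Among the E2s of ubiquitin-like proteins, Ube2m, one of the E2s that attach NEDD8 to cullins, had 9610 counts in ND replicate 2 and 488 in HFD replicate 2, or 1230 and 85.3 CPM, but 33 counts in ND replicate 1 and 4 in HFD replicate 1. Replicate 2 of either diet was thus far above replicate 1, and the log2 fold change of -4.50 (SE 3.27) turned to 2.73 without ND replicate 2. Ube2f, the other NEDD8 E2, had between 4.54 and 11.6 CPM, with both HFD values below both ND values. Ube2l6, the E2 of ISG15, had 13 and 10 counts in replicate 1 of ND and HFD and 0 in both replicates 2. Ube2z, which is loaded by the E1 enzyme UBA6, had 3.20 to 6.66 CPM and both HFD values above both ND values. Ube2f and Ube2z were each above background in only 1 library.

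UBE2G2, UBE2J1 and UBE2J2 serve ER-associated degradation, and UBE2G1, UBE2K and UBE2R2 build K48 chains, the common signal for the proteasome. The genes of this role that reached 50 CPM did so in HFD, each in a single library. Ube2j2 had 4601 counts in HFD replicate 1, or 713 CPM, and 67 in HFD replicate 2, or 11.7 CPM, against 49 counts in both ND libraries. Its log2 fold change was 6.36 (SE 2.71, adjusted p = 0.406) and dropped to 0.21 without HFD replicate 1. Ube2g2 had 810 counts in HFD replicate 2, or 142 CPM, and 15 in HFD replicate 1, or 2.32 CPM, against 17 and 12 counts in the ND libraries. Although its HFD values both lay above both ND values, the margin in HFD replicate 1 was small, at 2.32 against 2.07 CPM, and 10.3% of its exon bases lie in exons of Gm49325, which had 0 counts. The log2 fold change of Ube2g2 was 4.73 (SE 1.73, unadjusted p = 0.0339, adjusted p = 0.406) and 0.87 without HFD replicate 2.

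Ube2g1 had 2062 counts in HFD replicate 2, or 360 CPM, and 38, 59 and 26 counts in ND replicates 1 and 2 and HFD replicate 1. Its log2 fold change of 4.30 (unadjusted p = 0.0780) turned to -0.11 without HFD replicate 2. Ube2r2, a cullin-RING E2, had 700 counts in HFD replicate 1, or 108 CPM, against 45 and 140 in ND and 27 in HFD replicate 2. It turned from 2.70 (SE 1.91) to -2.06 without HFD replicate 1. Ube2j1 and Ube2k stayed between 0.929 and 10.3 CPM in all libraries. Ube2h, the E2 of the CTLH ligase, had its highest value, 17.0 CPM, in ND replicate 2.

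UBE2N builds K63 chains, used in DNA damage signalling, together with UBE2V1 or UBE2V2. Ube2n had 1356 counts in ND replicate 1 and 1150 in HFD replicate 1, or 165 and 178 CPM, and 58 and 33 counts in replicates 2. Replicate number and not diet went with its level, and the log2 fold change was 0.61 (SE 2.26), with a turn to -0.18 under a replicate block and to -4.57 without HFD replicate 1. Of the stretches of 100 bases in its transcripts, 8.23% also occur in another gene, mainly the processed pseudogene Ube2n-ps1, which had 126 counts in ND replicate 1, 3 in HFD replicate 2 and 0 in the other libraries. Ube2v2 had 428 counts in HFD replicate 1, or 66.3 CPM, and 28, 76 and 8 counts in ND replicates 1 and 2 and HFD replicate 2. Its log2 fold change of 2.81 (SE 1.98) turned to -2.97 without HFD replicate 1. Ube2v1 had at most 20 counts in a library, but 69.1% of its exon bases lie in exons of the same-strand gene Gm20431, and reads there may have been left uncounted or assigned to that gene. Ube2t, the E2 of the Fanconi anaemia pathway, had 3.87 to 13.1 CPM with overlapping groups.

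The UBE2D and UBE2E enzymes are general E2s that work with many E3 ligases. Ube2d3 was the most even of the genes above 50 CPM, with 713 and 338 counts in the ND libraries, or 86.7 and 43.3 CPM, and 121 and 178 in the HFD libraries, or 18.7 and 31.1 CPM. Both HFD values were lower, and the log2 fold change was -1.46 (SE 1.04, unadjusted p = 0.215, adjusted p = 0.597), between -1.88 and -1.01 with each library left out. Ube2d1 had 51 and 117 counts in ND and 4 and 11 in HFD, or 0.620 and 1.92 CPM in HFD against 6.20 CPM in the lower ND library. Among the Ube2 genes it had the smallest unadjusted p, 0.00252, with a log2 fold change of -3.31 (SE 0.69, adjusted p = 0.406), and leaving out single libraries kept it between -3.92 and -2.53. Ube2e3 had 677 and 142 counts in ND, or 82.3 and 18.2 CPM, and 9 and 48 in HFD, or 1.39 and 8.39 CPM. Its groups did not overlap either. The log2 fold change was -3.71 (SE 1.26, unadjusted p = 0.0267, adjusted p = 0.406) and became -2.43 without ND replicate 1. All HFD values of Ube2d3, Ube2d1 and Ube2e3 were at background, and DESeq2 gave Ube2d1 no adjusted p.

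Close relatives of these genes had other patterns. Ube2d2a, whose coding sequence matched that of Ube2d3 at 84.0% of bases, had 28.0 CPM in HFD replicate 1 and 5.94 to 9.85 CPM in the others. Ube2e2 was above both ND values in both HFD libraries, at 14.1 and 6.64 against 5.47 and 5.25 CPM. Its values in ND replicate 2 and HFD replicate 2 were at background, however. Ube2e1 had overlapping groups. Ube2w, which ubiquitinates the N terminus of substrates, had 2.63 to 5.59 CPM, and Ube2d2b had at most 9 counts in a library. Ube2d-ps, a transcribed pseudogene of this family and not among the 37 genes, had 1196 counts in HFD replicate 1 and 311 in ND replicate 2, against 12 and 24 in the other libraries.

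Of the remaining genes, Ube2l3 encodes an E2 that serves HECT and RBR ligases. It had 94 and 97 counts in ND, or 11.4 and 12.4 CPM, and 7 and 25 in HFD, or 1.08 and 4.37 CPM. Both HFD values were at background. The ND libraries lay close together, and the log2 fold change was -2.43 (SE 0.60, unadjusted p = 0.00673, adjusted p = 0.406), between -2.95 and -2.17 with each library left out. Of its exon bases 28.6% lie in exons of other genes, mostly Ydjc on the opposite strand, which had 12 to 21 counts in every library. Ube2q2, of a family with an extended N terminus, had 897 counts in HFD replicate 1, or 139 CPM, and 20 to 66 in the other libraries. The value of 3.85 (SE 2.07) for its log2 fold change turned to -1.69 without HFD replicate 1. Its relative Ube2q1 was highest in HFD replicate 2, at 37.4 CPM, and between 2.32 and 9.36 CPM in the others. Ube2ql1, Ube2u and Ube2cbp ranged from 1.08 to 6.29 CPM with overlapping groups, and the UBE2D-like genes Ube2dnl1 and Ube2dnl2 had at most 5 counts.

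UBE2O, a large enzyme with E2 and E3 activity, is known for clearing proteins during red blood cell maturation. Ube2o had 14574 counts in ND replicate 1, or 1772 CPM, and 40, 31 and 38 counts in ND replicate 2 and HFD replicates 1 and 2. ND replicate 1 held 99.1% of its summed CPM, and the log2 fold change of -7.26 (SE 3.11, adjusted p = 0.406) became -0.004 without this library. The 5 blood markers listed for these libraries summed to 1972 CPM in ND replicate 1 and to 1.02 to 4.54 CPM in the other libraries. In ND replicate 1, Hbb-bs had 7350 counts, Hba-a1 5879 and Hbb-bt 2979. Alas2 and Hba-a2 of that list did not follow. Alas2 had 11 and 4 counts in ND and 10 and 24 in HFD, and Hba-a2 had 1 and 0 in ND and 0 in HFD. The part of blood cells in the level of Ube2o was not tested.

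**Figure D4:**
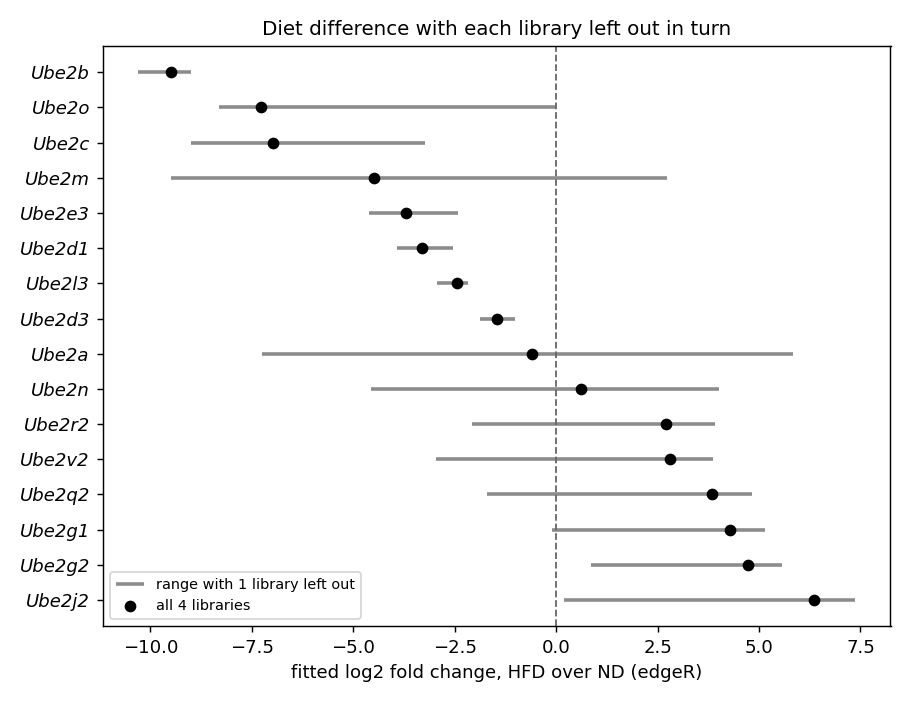
Fitted log2 fold change of HFD over ND from edgeR for 16 Ube2 genes described in full (black points), with the range when each of the 4 libraries is left out in turn (grey bars). The bar of Ube2b spans -10.30 to -9.01, whereas the bars of Ube2a, Ube2m, Ube2n, Ube2r2, Ube2v2, Ube2q2 and Ube2g1 cross 0.

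Per kilobase of annotated exon, which allows levels to be compared between genes, Ube2b was the most abundant Ube2 gene of ND replicate 1 at 920 CPM per kilobase. Ube2o followed at 335 and Ube2c at 269 in that library. In ND replicate 2 the order was Ube2m at 522 CPM per kilobase, Ube2b at 486 and Ube2a at 286. HFD replicate 1 was led by Ube2j2 at 162 CPM per kilobase and Ube2a at 140, and HFD replicate 2 by Ube2g1 at 78.7, Ube2g2 at 58.2 and Ube2m at 36.2. Exon lengths were the union of all annotated exons, which is long for genes with many transcripts such as Ube2d3.

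Other genes of the ubiquitin pathway were taken from 9 lists, of which 84 genes were tested. Of these, 10 were lower and 4 higher in HFD at an unadjusted p under 0.05, beside 6.41% and 4.82% of all genes. The fitted log2 fold change was below 0 for 50 and above 0 for 34, beside 48.5% and 51.5% of all genes, and the median was -0.41. EdgeR's quasi-likelihood test called 0 of them, where 0% of all genes were called. DESeq2 called 22 of the 47 to which it gave an adjusted p (46.8%), which is near the 45.3% it called of all genes with one. Among the 4 ubiquitin genes, Rps27a, a fusion of ubiquitin and a ribosomal protein, had 2179 and 593 counts in ND and 37 and 103 in HFD. Of 9 E1 enzymes, 2 were lower at an unadjusted p under 0.05. Uba1, the main ubiquitin E1, had 6565 and 310 counts in ND and 18 and 77 in HFD, and Sae1, a subunit of the SUMO E1, had 5712 counts in ND replicate 2 and 10 to 29 in the other libraries. Of the 8 E2 enzymes without a Ube2 symbol, Cdc34, the relative of Ube2r2, had 11100 counts in HFD replicate 2, or 1939 CPM, against 36 and 68 in ND and 112 in HFD replicate 1, and Birc6 had 4692 and 1103 counts in ND and 5342 and 116 in HFD. Cdc34 and Sae1 were thus high in a single library, whereas Birc6 reached 50 CPM in 3 libraries.

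The 12 partners of UBE2A and UBE2B, among them RAD18, RNF20, RNF40 and the UBR ligases, had 9 genes fitted higher and 3 lower, beside 51.5% and 48.5% of all genes. At an unadjusted p under 0.05 there was 1 higher and 1 lower, beside 4.82% and 6.41% of all genes. Pcna, the replication clamp that RAD18 and UBE2A or UBE2B ubiquitinate, had 1129 and 83 counts in ND and 5 and 4 in HFD, at a log2 fold change of -6.52 (SE 1.73, adjusted p = 0.406). Leaving out single libraries gave -7.42 to -3.88, the latter without ND replicate 1. Ubr3, a ligase that works with RAD6 enzymes, had 59 and 40 counts in ND and 716 and 697 in HFD, at a log2 fold change of 4.26 (SE 1.27, adjusted p = 0.406). Its HFD libraries lay close together, at 111 and 122 CPM, and leaving out single libraries kept the value between 3.59 and 4.68.

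Of 16 genes of the anaphase-promoting complex, 11 were fitted lower, beside 48.5% of all genes, with 2 below the unadjusted limit of 0.05, beside 6.41%. Anapc5, a scaffold subunit, had 1469 and 755 counts in ND and 12 and 93 in HFD, whereas Anapc2, the cullin subunit, had 5149 counts in HFD replicate 1 and 27 to 42 in the other libraries. Of 14 genes of the cullin-RING core, 11 were also fitted lower, beside the same 48.5% of all genes. At an unadjusted p under 0.05, 2 were lower and 1 higher, beside 6.41% and 4.82% of all genes. Cul1, the scaffold of SCF ligases, had 914 and 167 counts in ND and 19 and 54 in HFD, and Rnf7, a RING subunit, had 31 and 1830 in ND and 4 and 21 in HFD. Of 10 genes of the SUMO pathway, 1 was higher and 1 lower at that limit. Sumo2 had 1203 and 2389 counts in ND and 10 and 118 in HFD, while its paralog Sumo3 had 33 and 45 in ND and 113 and 1990 in HFD. The 6 genes of K63 chain and Fanconi ligases and the 5 of ER-associated degradation ligases held 0 genes at an unadjusted p under 0.05 in edgeR's quasi-likelihood test.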

How the data were processed

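RNA-seq of E18.5 fetal oocytes was analysed from the raw counts per gene that the authors deposited, one file per library (2 ND, 2 HFD). The authors ran FastQC, trimmed with Trim Galore, aligned to mm10 with HISAT2 and counted with featureCounts. They compared the diets with DESeq2, at the limits of adjusted p and fold change that are also used here. The annotation release, strand setting and handling of reads with several alignments are not given in the sources used here. Symbols, coordinates and lengths of exons are those of GENCODE M21 (GRCm38), which lacked 260 of 55401 identifiers. CPM was the count scaled by the total of all identifiers in the library, and 3 counts corresponded to 0.365 to 0.524 CPM. Diets were compared with edgeR 4.0.16 (R 4.3.3) by quasi-likelihood test, with the arguments legacy and robust both FALSE, on TMM-normalized counts (factors 1.02, 0.940, 0.692 and 1.51 for ND replicates 1 and 2 and HFD replicates 1 and 2) and filterByExpr with a count minimum of 10, with Benjamini-Hochberg adjustment. A call needed an adjusted p under 0.05 and a fold change over 1.5. The standard error (SE) was obtained as the absolute log2 fold change divided by the root of the F statistic. Alternatives used DESeq2 1.42.0, limma 3.58.1 and the settings given in the closing section. The functions were run on simulated counts with a dispersion (spread beyond counting error) of 0.2, which was not fitted to these libraries. Ube2 genes described in full are Ube2a, Ube2b, those at 50 CPM in any library, and those with an unadjusted p under 0.05 and groups that do not overlap. From each pathway list the text gives up to 2 genes with the smallest p among those at 50 CPM in any library, besides defining markers. The values of 2 genes that these rules name are not reported here. The members, lists and rules were chosen with earlier results of these data known. Reads carry no molecular identifiers, so intervals cover counting error only.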

Additional observations from a re-analysis of the deposited data

How the results depend on the processing

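No Ube2 gene was called under the other normalizations and filters, limma-voom, the legacy fit, the replicate block or with a library left out, whereas DESeq2 called 10 Ube2 genes, 22 pathway genes and 2539 genes in all, and the legacy fit 34 in all. Ube2 genes at an unadjusted p under 0.05 numbered 7, and 3 with library size only, 4 with at least 10 counts in every sample, 11 with DESeq2, 2 with limma-voom and 3 to 11 with each library left out (3 without HFD replicate 1, 11 without HFD replicate 2). Pathway genes at that limit numbered 14, and 8, 6, 25 and 2 in the same order of settings, 3 with the legacy fit and 11 to 16 with a library left out. Over all genes the number was 2171, and 4031 without a filter, 1301 with at least 10 counts, 750 with limma-voom, 1205 with the legacy fit and 2682 to 3855 with a library left out (3855 without ND replicate 1, 3451 without HFD replicate 1, 3550 without HFD replicate 2). Fewer or more genes were tested under the filters, and the cause of the other moves was not tested.

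With a replicate block in edgeR, 3 Ube2 genes, 3 pathway genes and 1482 genes in all had an unadjusted p under 0.05, 0 were called, and Ube2n turned to -0.18. Deviations of same-numbered libraries had a correlation of 0.01 across genes, and nothing in the labels says that a number marks a shared litter or day.

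Ube2b had a log2 fold change of -9.56 with DESeq2, where it was called, and -10.30 to -9.01 with a library left out. Ube2a turned to 0.028 with limma-voom and lay between -7.26 and 5.84 with a library left out. Turns of sign of other genes came with a library left out: Ube2g1 -0.11 to 5.14, Ube2m -9.49 to 2.73, Ube2n -4.57 to 4.01, Ube2q2 -1.69 to 4.84, Ube2r2 -2.06 to 3.91 and Ube2v2 -2.97 to 3.87. The difference of the summed level lay between -2.33 and -1.35, and that of the Ube2b share between -82.3 and -43.8 percentage points. Scaling by library size only moved the median log2 fold change of all genes from 0.03 to 0.21 and that of the Ube2 genes from -0.15 to -0.04, with 16 genes above 0 and 17 below (13 and 20 with TMM). Leaving out single libraries moved the Ube2 median further, to -1.69 without HFD replicate 1 (9 genes above 0, 24 below) and to 0.04 without ND replicate 2 (17 above, 16 below). At 50 CPM, 0 Ube2 genes were above the level in all 4 libraries, against 1 above background.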
